A study of Homo sapiens with 12 samples.

Results

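SCIN, SOX9 and BICC1 are 3 genes of the 58735 in the count table. They were picked because the AG-205 effect on their mRNA, taken with its sign, was higher in T-HESC cells than in HEC-1A cells. The choice used measured values: the AG-205 against DMSO contrast of each cell line and the difference between these contrasts. Those values are therefore described below with their standard errors and without a test. SCIN encodes scinderin, also called adseverin, SOX9 encodes a transcription factor, and BICC1 encodes an RNA-binding protein. All 3 genes were found by symbol and all 3 passed the filter on low counts in the fit of the 12 libraries, in which 16132 genes were tested. SOX9 passed it through HEC-1A, where its level was high, and through the T-HESC cultures with AG-205.

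The study added AG-205, a small molecule sold as a PGRMC1 ligand, to cultures of 2 human endometrial cell lines without progesterone and asked which mRNAs changed. T-HESC (labelled THESC) is a telomerase-immortalised stromal line of fibroblastic origin, and HEC-1A (labelled HEC1A) is an epithelial line from an endometrial adenocarcinoma. Cultures of each line received either AG-205 at 15 µM or its vehicle DMSO, and RNA was taken 32 h later, which gave 4 groups of 3 libraries of polyA-selected RNA from cultures described as independent experiments. Each line stands for 1 established cell population, so differences between the lines cannot be told apart from differences between epithelium and stroma.

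Scinderin belongs to the gelsolin family, whose members bind actin and, in several cases, sever filaments and cap their ends in response to calcium. SOX9 carries an HMG box, a DNA-binding domain shared by the SOX family, and is known for its part in cartilage formation, in testis determination and in progenitor cells of several epithelia, including endometrial glands. BICC1, the human homolog of Drosophila Bicaudal-C, binds mRNA through KH domains and assembles through a SAM domain, and loss of its mouse counterpart gives cystic kidneys. None of the 3 encodes an enzyme of cholesterol biosynthesis.

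Total counts ranged from 7168542 to 15178276 per library. Levels are given as CPM, the count of a gene scaled by the TMM-adjusted total of its library, with the SD between the 3 replicates. The spread between replicates, as edgeR's biological coefficient of variation, came to 10.1% for HEC-1A and to 33.6% for T-HESC. AG-205 replicate 1 of T-HESC stood apart: its log2 CPM had a mean correlation of 0.945 with the other libraries of its group, against 0.959 and 0.963 for AG-205 replicates 3 and 2 and 0.978 to 0.993 for the 9 libraries of the other groups. The T-HESC effects of SCIN, SOX9 and BICC1 are therefore also given without that library. The cell type markers fitted the labels in most cases: 13 of 14 stromal genes were higher in T-HESC and 9 of 11 tested epithelial genes were higher in HEC-1A (edgeR's quasi-likelihood test), with summed levels of the stromal list from 19355 to 39363 CPM in T-HESC and from 72.3 to 132 CPM in HEC-1A. The exceptions were MUC1, KRT19 and S100A4. MUC1, a mucin of epithelial surfaces, was at 0.310 to 1.53 mean CPM in HEC-1A. It was called higher in T-HESC, by 2.80 on the log2 scale (SE 0.410, adjusted p = 4.52e-05, edgeR's quasi-likelihood test). KRT19 and S100A4 were near the same level in both lines. The summed blood and endothelial markers reached at most 3.23 CPM.

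SCIN (ENSG00000006747) lies on chromosome 7, at chr7:12570577-12660182 on the plus strand of GRCh38, and its annotated exons cover 11626 bases in 23 merged exons (GENCODE 44). SOX9 (ENSG00000125398) lies at chr17:72121020-72126416 on the plus strand, with 3931 bases in 3 exons. BICC1 (ENSG00000122870) lies at chr10:58512872-58831435 on the plus strand, with 6835 bases in 22 exons. Genes that overlap the 3 held few counts. The exons of SCIN share 2.34% of their bases with a lncRNA on the opposite strand that had 0 to 4 counts per library and 3.72% with one on the same strand that had 0 counts. The antisense RNA SOX9-AS1, which shares no exon base with SOX9, had 0 to 8 counts, and the pseudogene FAM133CP inside BICC1, also without a shared exon base, had 0 to 22.

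The promoter of SCIN is shown because it is the only one of the 3 in the RefSeq promoter table used here. It covers 250 bases before and 50 after the RefSeq start site at chr7:12570470-12570769 on the plus strand of GRCh38.p14, and the capitals mark TATAAA, the core of a TATA box.
SCIN promoter: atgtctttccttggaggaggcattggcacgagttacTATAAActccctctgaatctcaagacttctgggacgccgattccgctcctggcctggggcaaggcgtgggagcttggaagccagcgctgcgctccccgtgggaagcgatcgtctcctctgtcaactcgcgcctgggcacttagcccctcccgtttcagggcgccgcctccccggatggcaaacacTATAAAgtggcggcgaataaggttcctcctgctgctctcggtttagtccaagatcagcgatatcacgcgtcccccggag
The window held TATAAA at 2 places, beginning 214 and 29 bases before the start site, and 59.7% of its bases were G or C. Among 35116 RefSeq promoters of this length, 11.5% held TATAAA on either strand. CCAAT, the NF-Y motif, was present 1 time, on the minus strand and 229 bases before the start site (34.6% of promoters). The letters GGGCGG (GC box, 45.0% of promoters), CANNTG (E-box, 68.7%), TGANTCA (AP-1, 7.71%), GGAATG (TEAD, 14.0%), AACAAT (SOX, 10.1%) and CACCCCA (part of the sterol response element, 8.08%) were searched on both strands and are not in this window. A match of letters describes the sequence and is not a measurement of binding.

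SCIN mRNA was abundant in HEC-1A under both conditions and low in T-HESC with DMSO, and the T-HESC cultures with AG-205 came near the HEC-1A level. In T-HESC with DMSO the 3 libraries measured 49.0, 56.4 and 64.2 CPM (56.5 ± 7.61, SD, n = 3). With AG-205 they measured 202, 171 and 146 CPM (173 ± 27.9, SD, n = 3). The AG-205 libraries lay above the DMSO libraries without overlap, and the lowest AG-205 value was 2.27 times the highest DMSO value. The fitted log2 fold change was 1.60 (SE 0.235), or 3.04-fold. AG-205 replicate 1, the library that stood apart, held the highest SCIN level, and without it the log2 fold change was 1.46 (SE 0.186). The values rest on 644 to 681 counts per DMSO library and 1725 to 2280 counts per AG-205 library, so counting error is small beside the spread of the cultures.

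In HEC-1A the SCIN libraries measured 262, 266 and 262 CPM with DMSO (263 ± 2.42, SD, n = 3) and 243, 218 and 252 CPM with AG-205 (238 ± 17.5, SD, n = 3). The AG-205 libraries were below the DMSO libraries without overlap, but by a small amount, with a log2 fold change of -0.15 (SE 0.0913). The difference of the effects, T-HESC minus HEC-1A in the fit of 12 libraries, was 1.76 (SE 0.228) on the log2 scale, and nearly all of it came from T-HESC. HEC-1A exceeded T-HESC 4.66-fold in mean CPM with DMSO and 1.37-fold with AG-205. Even so, the lowest HEC-1A library with AG-205 remained 1.08 times the highest T-HESC library with AG-205.

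SOX9 was well expressed in HEC-1A and close to the limit of detection in T-HESC. In T-HESC with DMSO the libraries held 2, 2 and 3 counts, or 0.150, 0.166 and 0.299 CPM (0.205 ± 0.0819, SD, n = 3), which is at the floor of 3 counts used here. With AG-205 they held 12, 25 and 15 counts, or 1.09, 1.88 and 1.27 CPM (1.41 ± 0.411, SD, n = 3). All 3 AG-205 libraries were above all 3 DMSO libraries. Summed over each group, 52 counts with AG-205 stood against 7 with DMSO, a ratio per total count of 7.14. The exact 95% interval of this ratio, from 3.23 to 18.6, covers counting error only. That interval leaves out the spread between cultures and the choice of SOX9 by this contrast, so it is not a test of the effect. The fitted log2 fold change of 2.75 (SE 0.538) depends on the prior count at such levels. Without AG-205 replicate 1, the library with the lowest SOX9 level of its group, it was 2.90 (SE 0.572).

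In HEC-1A the SOX9 libraries measured 38.9, 42.6 and 39.4 CPM with DMSO (40.3 ± 1.99, SD, n = 3). With AG-205 they measured 37.1, 48.7 and 32.3 CPM (39.3 ± 8.42, SD, n = 3). The 2 groups overlapped, with a log2 fold change of -0.03 (SE 0.134), so no shift beyond the spread of the libraries was visible at 270 to 660 counts per library. The difference of the effects was 2.82 (SE 0.443). The HEC-1A mean was 196 times the T-HESC mean with DMSO and 27.8 times with AG-205, so that T-HESC with AG-205 stayed far below HEC-1A.

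BICC1 differed from the other two in that both lines contributed to the difference, in opposite directions. In T-HESC the libraries measured 19.2, 16.3 and 18.5 CPM with DMSO (18.0 ± 1.52, SD, n = 3) and 22.0, 27.8 and 28.8 CPM with AG-205 (26.2 ± 3.68, SD, n = 3). The groups did not overlap, although the lowest AG-205 library was only 1.14 times the highest DMSO library. The log2 fold change was 0.53 (SE 0.219), or 1.44-fold. AG-205 replicate 1 held the lowest of the 3 AG-205 levels, and without it the value was 0.63 (SE 0.190).

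In HEC-1A the BICC1 libraries measured 173, 203 and 187 CPM with DMSO (188 ± 15.4, SD, n = 3). With AG-205 they measured 114, 110.1 and 108 CPM (111 ± 3.03, SD, n = 3), and all 3 were below all DMSO libraries. The log2 fold change was -0.76 (SE 0.0922), which is 1.69-fold lower with AG-205. The difference of the effects was 1.30 (SE 0.210), to which HEC-1A contributed more than T-HESC. The HEC-1A mean was 10.4 times the T-HESC mean with DMSO and 4.23 times with AG-205.

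**Figure D1:**
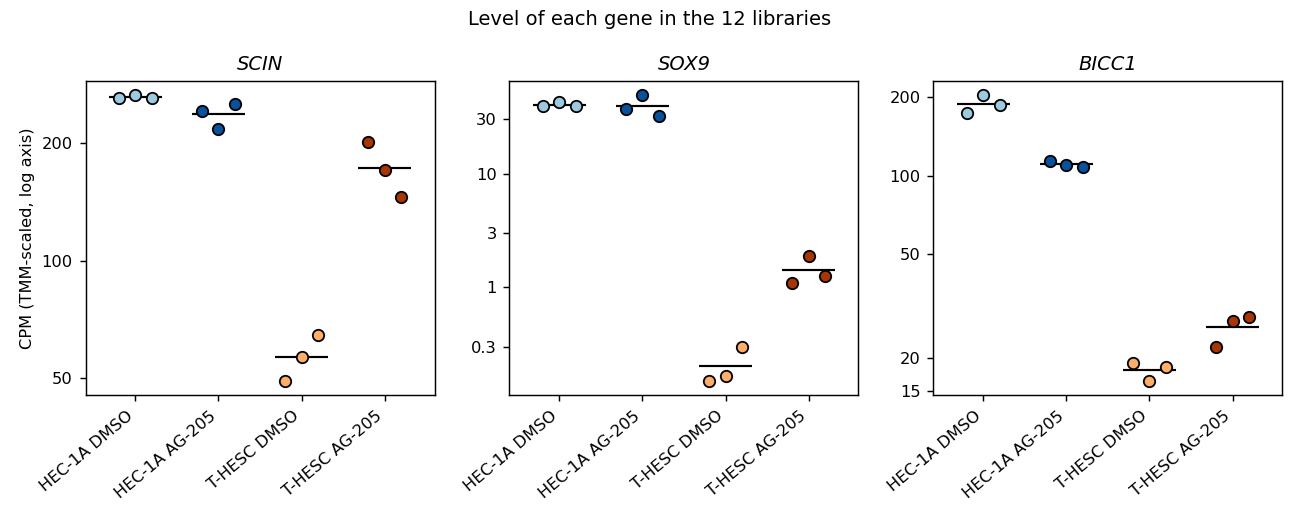
CPM of SCIN, SOX9 and BICC1 (log axis, each panel with its own range) in the 12 libraries, where points are libraries in the order of their replicate numbers and horizontal lines are group means. In T-HESC the 3 AG-205 points lie above the 3 DMSO points in each panel, whereas in HEC-1A the AG-205 points lie below the DMSO points for SCIN and BICC1 and overlap them for SOX9.

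Calls across all genes were few in T-HESC and more frequent in HEC-1A. A call required an adjusted p below 0.05 and a change of more than 1 on the log2 scale in either direction, and the share of calls among all genes tested was 0.0800% in T-HESC and 2.78% in HEC-1A (edgeR's quasi-likelihood test, Benjamini-Hochberg). SCIN, SOX9 and BICC1 were not among these calls in either line. AG-205 libraries lay above DMSO libraries without overlap for 6.22% of the genes tested in T-HESC, and below them for 15.0% in HEC-1A. The difference between the lines was called toward T-HESC for 7 of 16132 genes (0.0434%) and toward HEC-1A for 21 (0.130%), and SCIN, SOX9 and BICC1 are 3 of the 7, as their selection required. An unadjusted p below 0.05, the measure given for the lists below, was found for 5.38% of all genes tested in T-HESC, 26.2% in HEC-1A and 6.35% for the difference. With calls this rare in T-HESC and in the difference, a list below without a call cannot be read as unaffected. Over all genes the log2 fold change had a median of 0.02 in T-HESC cells and of 0.01 in HEC-1A cells. The exact permutation test for 1 gene, with 3 libraries in each group, has a smallest p of 0.1, and was therefore not used.

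**Figure D2:**
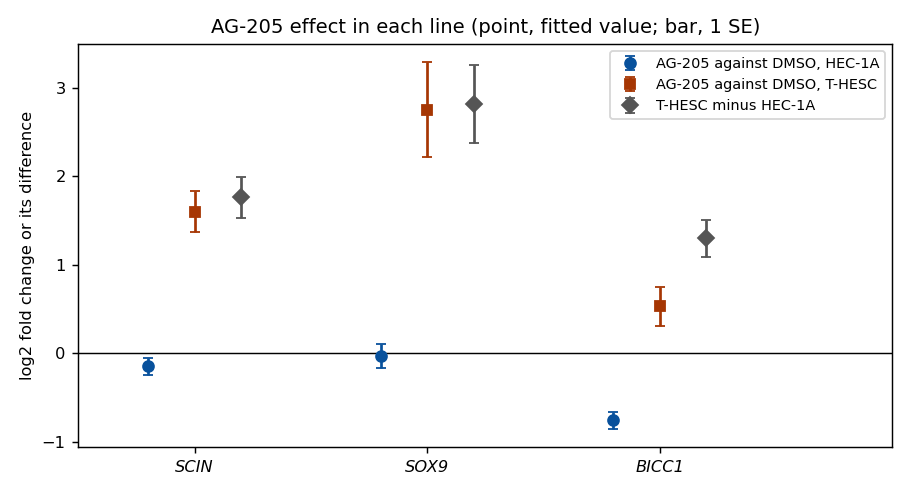
Log2 fold change of AG-205 against DMSO in HEC-1A (circles) and T-HESC (squares), and the difference T-HESC minus HEC-1A (diamonds), for the 3 genes, with bars of 1 SE. For SCIN and SOX9 the T-HESC value of 1.60 and 2.75 accounts for nearly all of the difference, whereas for BICC1 the HEC-1A value of -0.76 is larger in size than the T-HESC value of 0.53.

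As a description of the values that chose the 3 genes, and not as support for them, the difference was also computed without single libraries. Leaving out each of the 12 libraries in turn, the difference ranged from 1.64 to 1.87 for SCIN, from 2.53 to 3.14 for SOX9 and from 1.23 to 1.41 for BICC1. The extremes for SOX9 came from leaving out AG-205 replicate 2 of T-HESC, the library with 25 counts, and DMSO replicate 3 of T-HESC, the one with 3 counts. In HEC-1A alone, the SOX9 effect took either sign, from -0.20 without AG-205 replicate 2 to 0.08 without AG-205 replicate 3.

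**Figure D3:**
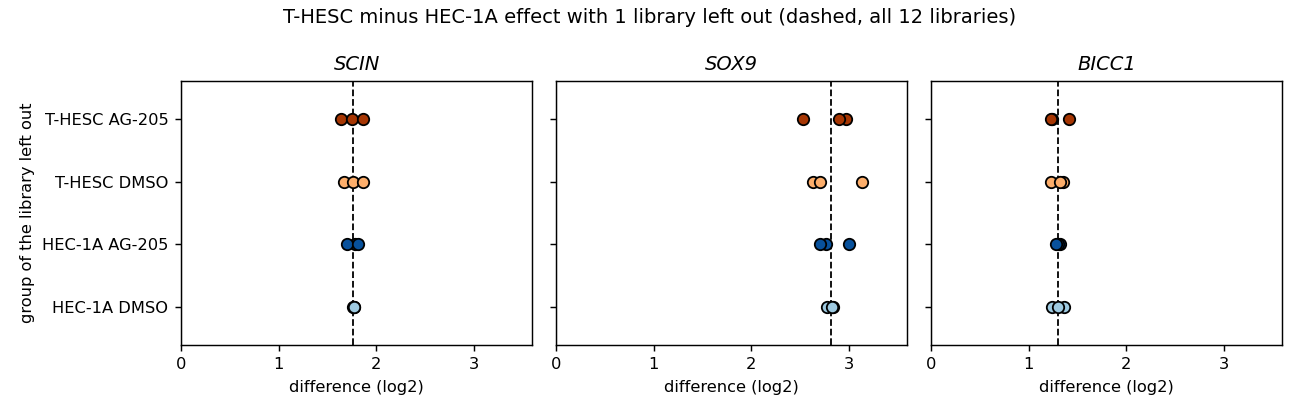
Difference of the AG-205 effect between the lines (log2, T-HESC minus HEC-1A) when 1 library is left out, by the group of that library (1 point for each of the 3 libraries), with a dashed line at the value from 12 libraries. All points lie between 1.64 and 1.87 for SCIN, between 2.53 and 3.14 for SOX9 and between 1.23 and 1.41 for BICC1.

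The level of the 3 genes over both treatments is a measure that the selection did not use, and it was tested as the mean of the T-HESC groups minus the mean of the HEC-1A groups. All 3 genes were higher in HEC-1A. The log2 difference was -1.34 for SCIN (SE 0.115, adjusted p = 3.10e-07, edgeR's quasi-likelihood test), or 2.53-fold. It was -6.18 for SOX9 (SE 0.205, adjusted p = 3.92e-11), or 72.7-fold, and -2.73 for BICC1 (SE 0.111, adjusted p = 2.08e-10), or 6.64-fold. Calls of this kind were common: 23.8% of the genes tested were called higher in HEC-1A and 23.3% higher in T-HESC. In every one of the 6 pairs of a HEC-1A group with the T-HESC group of the same treatment, 2 for each gene, the HEC-1A libraries were above the T-HESC libraries without overlap. The same held for 38.2% of all genes tested with DMSO and for 31.8% with AG-205.

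Because the 3 genes were higher in HEC-1A, the genes that define epithelial cells were read in the T-HESC libraries as well. EPCAM, an adhesion protein of epithelia, had a mean of 243 CPM in HEC-1A with DMSO and 2 to 6 counts per T-HESC library with DMSO against 2 to 7 with AG-205. The cadherin CDH1 had 2 to 3 counts with DMSO and 0 to 2 with AG-205, and the splicing factor ESRP1 had 0 to 1 and 1 to 2. These 3 genes were near 0 in T-HESC under both conditions, where SOX9 had 12 to 25 counts with AG-205. The keratins of the list, which T-HESC also expressed, had other values. KRT19 was at 106 ± 3.87 CPM with DMSO and 221 ± 38.4 CPM with AG-205 in T-HESC (SD, n = 3 each), a log2 fold change of 1.05 (SE 0.227) that edgeR did not call (adjusted p = 0.312) and DESeq2 did, and in HEC-1A it rose by 1.09 (SE 0.0861, adjusted p = 4.59e-06). KRT18 was at 154 ± 39.3 and 55.9 ± 38.4 CPM in T-HESC, with -1.47 (SE 0.491, adjusted p = 0.664). Their part in the values of SCIN, SOX9 and BICC1 was not tested. The summed level of the 12 epithelial markers, mostly keratins in T-HESC, was 242 to 351 CPM with DMSO and 223 to 393 CPM with AG-205 in T-HESC, and 1505 to 2297 CPM in HEC-1A. At most 3 counts in every library were found for 3 of the 12 in T-HESC with DMSO and for 5 with AG-205. A larger share of cells with the mRNA and more mRNA per cell cannot be told apart in such bulk cultures.

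On the scale of CPM per kb of exon, SCIN took place 2 of the 8 gelsolin family genes in HEC-1A cells and place 4 in T-HESC cells. The length used is that of all annotated exons of a gene merged, not that of the transcript expressed. Places between genes on this scale are therefore approximate, here and in the families below. Its level was 22.6 CPM per kb in HEC-1A with DMSO, 20.4 with AG-205, 4.86 in T-HESC with DMSO and 14.9 with AG-205. FLII, a family member that also acts as a nuclear receptor coactivator, ranked first in all 4 groups. In T-HESC with AG-205, SCIN came close to CAPG, a capping protein that does not sever filaments, at 18.6 CPM per kb.

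No other tested gene of the family had a log2 fold change above 0.12 in T-HESC. Of the other 7 genes, 6 were tested in T-HESC and 7 in HEC-1A, and none was called by edgeR's quasi-likelihood test, or by DESeq2, in T-HESC, in HEC-1A or in the difference between them. An unadjusted p below 0.05 was found for 0 genes in T-HESC, 2 in HEC-1A and 1 in the difference. Their log2 fold changes in T-HESC ran from -0.51 to 0.12 with a median of -0.10, against 0.02 over all genes. GSN, the founding member gelsolin, had -0.28 (SE 0.268) in T-HESC and 0.48 (SE 0.0921, adjusted p = 0.00584) in HEC-1A, where it did not reach the fold limit. Over both treatments GSN was higher in T-HESC, by 3.48 (SE 0.147, adjusted p = 3.06e-10), the reverse of SCIN, whereas VIL1 (-9.38, adjusted p = 4.25e-09), the villin of microvilli, and SVIL (-2.79, adjusted p = 5.19e-08) were higher in HEC-1A.

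A wider list of 18 genes that sever, cap or bind actin, among them cofilins, capping proteins, tropomodulins, twinfilins and profilins, had no call in either line or in the difference. At an unadjusted p under 0.05 there were 0, 3 and 1 genes, and DESeq2 called none. The median log2 fold change was -0.01 in T-HESC over 17 tested genes and -0.01 in HEC-1A over 18. CFL1, the non-muscle cofilin, had -0.19 in T-HESC, and the thymosins TMSB10 and TMSB4X had 0.55 (SE 0.484) and 0.63 (SE 0.417), which did not pass. Over both treatments 10 of the 18 were higher in T-HESC and 1, TMOD1, was lower.

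In the SOX family, SOX9 ranked first of 20 genes in HEC-1A, with 10.2 CPM per kb with DMSO and 10.0 with AG-205. In T-HESC it was in place 9 with DMSO, at 0.0522 CPM per kb, and in place 7 with AG-205, at 0.360. SOX4 ranked first in T-HESC, at 52.5 ± 35.2 CPM per kb with DMSO and 55.0 ± 38.4 with AG-205 (SD, n = 3 each), with a wide spread between libraries. None of the other SOX genes, of which 7 were tested in T-HESC, 6 in HEC-1A and 8 for the difference, was called for an AG-205 effect by edgeR or DESeq2. An unadjusted p below 0.05 was found for 0, 2 and 0 of them, and the median log2 fold changes were -0.27, 0.07 and -0.24. SOX4 had 0.59 on the log2 scale in HEC-1A (SE 0.104, adjusted p = 0.00338), below the fold limit. Between the lines, SOX3, SOX4, SOX5 and SOX12 were higher in T-HESC, and SOX6 and SOX17, a factor of endometrial epithelium, were higher in HEC-1A.

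**Figure D4:**
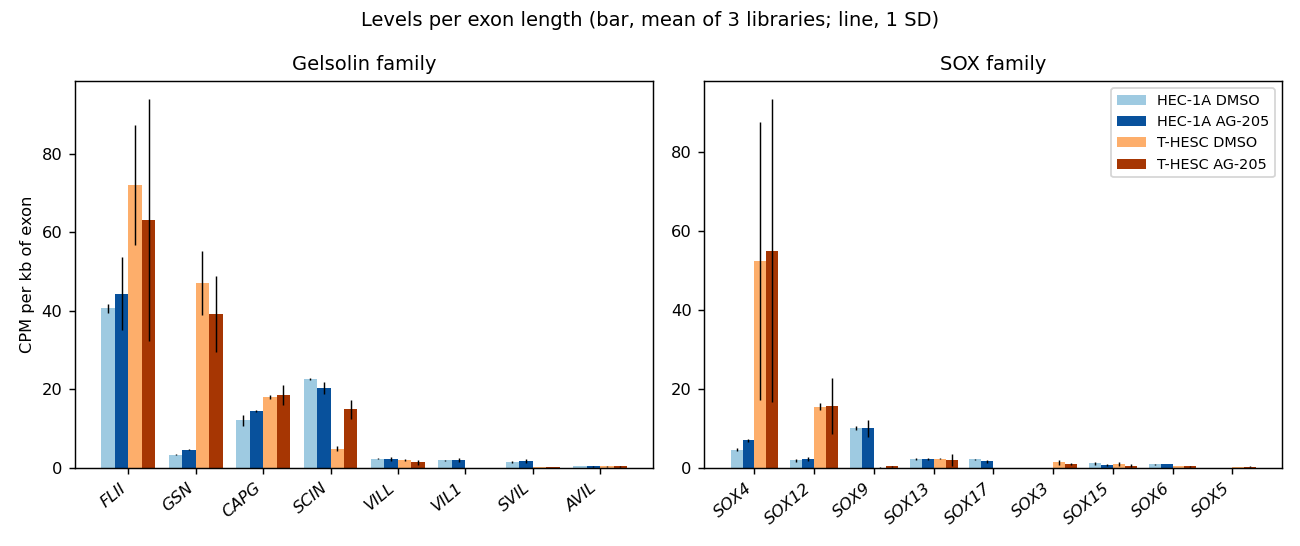
Mean CPM per kb of exon in the 4 groups for the 8 gelsolin family genes (left) and for SOX9 with the 8 other SOX genes that passed the filter on low counts (right), with lines of 1 SD over 3 libraries. SCIN stands at 4.86 in T-HESC with DMSO and 14.9 with AG-205, whereas SOX9 is at 10.2 and 10.0 in HEC-1A and under 1 in T-HESC.

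In T-HESC, where 0.0800% of all genes tested were called, no gene that SOX9 is known to activate in cartilage was called. Of 14 such genes, 7 were tested in T-HESC, 2 in HEC-1A and 7 for the difference, and 0 were called in each, with 0, 1 and 1 at an unadjusted p under 0.05 and 0 called by DESeq2. The median log2 fold change in T-HESC was -0.05, and COL11A1, a fibrillar collagen at 14.6 mean CPM with DMSO, had 0.56 (SE 0.560) while ACAN, which encodes the core protein of aggrecan, had -0.54 (SE 0.607). Over both treatments 5 of the 7 tested were called higher in T-HESC and 1 higher in HEC-1A, whereas SOX9 was higher in HEC-1A. In HEC-1A with DMSO, 12 of the 14 had at most 3 counts in every library. A list of 12 genes that WNT signals switch on, a pathway tied to SOX9 in several epithelia, had 6, 3 and 6 genes tested and no call by edgeR or DESeq2, with 0, 2 and 1 at an unadjusted p under 0.05. In that list MYC had 0.60 (SE 0.302) in T-HESC and -0.12 (SE 0.0852) in HEC-1A, and CCND1, a cyclin, had -0.40 (SE 0.0923, adjusted p = 0.0150) in HEC-1A, below the fold limit.

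SOX9 is also among the genes linked to the coactivator YAP and its partners, the TEAD factors, so 12 targets of these were read. In HEC-1A, ANKRD1, an ankyrin repeat protein, rose by 1.57 on the log2 scale (SE 0.164, adjusted p = 5.70e-05) and CCN2, a matricellular growth factor, fell by 1.16 (SE 0.160, adjusted p = 0.000573), among 11 tested. Of these 11, 10 had an unadjusted p below 0.05 and 9 had a log2 fold change below 0, among them AMOTL2 (-0.79), CRIM1 (-0.61), AJUBA (-0.54) and CCN1 (-0.51), which had adjusted p values of 0.000948, 0.00590, 0.00199 and 0.00695 but did not reach the fold limit. In T-HESC none of 12 was called, with 2 at an unadjusted p under 0.05, although DESeq2 called F3 lower. In the difference between the lines F3, which encodes tissue factor, was called with the opposite sign to SCIN, SOX9 and BICC1, at -1.76 (SE 0.266, adjusted p = 0.0267). Its log2 fold change was -1.41 (SE 0.267) in T-HESC and 0.36 (SE 0.101) in HEC-1A. That call was lost in 10 of the 12 fits that left out 1 library, with adjusted p values up to 0.113, while its value stayed between -2.02 and -1.66. The CCN2 call was lost without AG-205 replicate 2 of HEC-1A, where the value was -0.96 and thus inside the fold limit. The median of the list was -0.38 in T-HESC cells and -0.51 in HEC-1A cells.

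Among the partners of BICC1 at the cilium and the genes of cystic kidney disease, 9 in all, 1 was called: PKHD1, the gene of the recessive form, fell by 1.26 on the log2 scale in HEC-1A (SE 0.369, adjusted p = 0.0452), at 5 to 22 counts per library. DESeq2 did not call PKHD1, and the call was lost in 4 of the 6 fits that left out 1 HEC-1A library, with adjusted p values up to 0.199. ANKS6, which encodes a protein that binds BICC1, had -0.33 (SE 0.102, adjusted p = 0.0558) in HEC-1A and -0.07 (SE 0.213) in T-HESC. ANKS3, another binding partner, had -0.09 and -0.03. In T-HESC none of 7 genes was called, with 1 at an unadjusted p under 0.05, and the median was -0.03. Between the lines 4 of the 9 were higher in HEC-1A, as BICC1 was, among them ANKS6 (-2.05), NEK8 (-1.75) and PKHD1 (-5.50), and 2 were higher in T-HESC, among them PKD2 (2.44).

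BICC1 recruits the CCR4-NOT complex, which shortens the poly(A) tails of mRNA. None of its 11 genes was called in T-HESC, in HEC-1A or in the difference, with 0, 2 and 0 at an unadjusted p under 0.05 and none called by DESeq2. The median log2 fold changes were 0.06, -0.13 and 0.13. CNOT1, the scaffold, had -0.16 (SE 0.747) in T-HESC and -0.31 (SE 0.136) in HEC-1A. Over both treatments CNOT1, CNOT3, CNOT6 and CNOT10 were higher in HEC-1A, by 1.02 to 1.50 on the log2 scale in size, and no gene of the complex was higher in T-HESC at the fold limit.

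Among 24 genes of KH-domain RNA-binding proteins, ranked by CPM per kb, BICC1 took place 7 in HEC-1A with DMSO, place 8 with AG-205 and place 19 in T-HESC under both conditions. Its level was 27.5 CPM per kb in HEC-1A with DMSO, 16.2 with AG-205, 2.63 in T-HESC with DMSO and 3.83 with AG-205. None of the other 23 was called for an AG-205 effect by edgeR or DESeq2, among 19 tested in T-HESC and 21 in HEC-1A and in the difference. An unadjusted p below 0.05 was found for 2, 8 and 2 of them. In HEC-1A the median of this list was -0.19, and 6 of the 21 tested genes were above 0. IGF2BP2 and IGF2BP3, which bind and stabilise mRNA, had -0.37 each (adjusted p = 0.0196 and 0.0461, edgeR). Both were below the fold limit and smaller in size than the -0.76 of BICC1. MEX3B rose by 0.84 (SE 0.232, adjusted p = 0.0355, edgeR), also below the fold limit but larger in size than the value of BICC1.

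The genes next to the 3 on their chromosomes were read as well. The 2 nearest genes on each side that passed the filter were taken for each gene, 12 in all, and 0 were called for the difference between the lines. Of all genes tested, 0.0434% were called toward T-HESC and 0.130% toward HEC-1A. With calls so rare, 0 among 12 cannot show whether the pattern was shared. The differences ran from -1.02 (SE 0.955) for LINC00511 to 2.71 (SE 1.15) for ANK3, both at 0 to 4 counts per T-HESC library. ETV1, an ETS transcription factor gene 1231 kb from SCIN, had 1.41 (SE 0.485, adjusted p = 0.687, edgeR) in T-HESC and 0.01 (SE 0.171) in HEC-1A. The difference of ETV1 was 1.45 (SE 0.540), against 1.30 (SE 0.210) for BICC1. In T-HESC, ETV1 measured 2.18, 2.98 and 3.69 CPM with DMSO and 4.84, 13.9 and 5.00 CPM with AG-205. Its AG-205 replicate 2 was thus far above the other libraries, and the value leans on it. On the SOX9 side, the potassium channel gene KCNJ16, 1985 kb away, had 0.91 (SE 0.108, adjusted p = 0.000175) in HEC-1A, and the zinc transporter gene SLC39A11 had 0.37 (SE 0.283) in T-HESC. Near BICC1, TFAM, a mitochondrial transcription factor gene 114 kb away, had 0.29 (SE 0.330) in T-HESC and -0.21 (SE 0.115) in HEC-1A.

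Of the 7 genes whose difference was called toward T-HESC, TFPI2, PPARGC1B and the lncRNA ENSG00000260196 are described here. TFPI2, a secreted inhibitor of serine proteases, was at 474, 540.2 and 311 CPM in T-HESC with DMSO and at 1394, 1193 and 1317 CPM with AG-205, with a difference between the lines of 1.85 (SE 0.290, adjusted p = 0.0298). PPARGC1B, a transcriptional coactivator of mitochondrial genes, had 0, 0 and 1 counts in T-HESC with DMSO and 5, 13 and 13 with AG-205, like SOX9 at the edge of detection. Leaving out 1 of the 12 libraries at a time, TFPI2 lost its call in 8 fits, PPARGC1B in 11 and ENSG00000260196 in 10, with adjusted p values up to 0.124, 0.190 and 0.192. Their differences kept their sign in these fits, with 1.65 to 2.02 for TFPI2, 4.30 to 6.75 for PPARGC1B and 2.26 to 2.58 for ENSG00000260196. The 2 genes just outside the threshold were GDF15, a stress-induced cytokine, with a difference of 2.02 (SE 0.370), and MCTP1, a calcium-binding membrane protein, with 2.64 (SE 0.489), both larger than the 1.30 (SE 0.210) of BICC1 but with larger errors.

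The genes whose pattern was most like each of the 3 were ranked by the Pearson correlation of log2 CPM. These values are descriptions: over 12 libraries they mainly follow the difference between the lines, and libraries share depth and culture. For SCIN the genes most alike of 16131 over 12 libraries included NUDT14 (r = 0.967), for SOX9 PPARGC1B (0.996) and TRIB3 (0.995), and for BICC1 ANKRD2 (0.991) and STK32B (0.990). Over the 6 T-HESC libraries, 13677 genes were compared. SCIN was then closest to CRYL1 (0.996), FOLR3 (0.995), CSTB (0.994), EBP (0.992) and BRI3 (0.990), of which EBP encodes a sterol isomerase of cholesterol synthesis. The genes closest to SOX9 included LPIN1 (0.994), NSDHL (0.993), HDAC9 (0.991) and TPRG1L (0.991), of which NSDHL encodes an enzyme of cholesterol synthesis. BICC1 was closest to NR4A3 (0.994), KICS2 (0.990), SLFN5 (0.989), ALDOC (0.988) and MANBA (0.987).

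The sterol genes among these differed from the 3 genes in HEC-1A. NSDHL had log2 fold changes of 1.52 and 1.57, and EBP of 1.91 and 1.75, in T-HESC and HEC-1A, and the differences between the lines were -0.03 and 0.17. Among themselves, SCIN and SOX9 had a correlation of 0.957 over the 6 T-HESC libraries and -0.481 over the 6 HEC-1A libraries. SCIN and BICC1 had 0.794 and 0.763, and SOX9 and BICC1 had 0.910 and 0.190. Within each line these correlations include the separation of the AG-205 from the DMSO libraries, which for T-HESC is part of how the 3 genes were picked.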

How the data were processed

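The authors deposited 1 table of raw counts: the number of reads per gene in 12 libraries, without normalization. Per the labels and the study's methods, reads were trimmed with Trimmomatic 0.38, aligned to GRCh38 with HISAT2 2.1.0 and counted with featureCounts of Subread 2.0.0 on Ensembl release 94. Strandedness and the handling of multi-mapping reads are not given in the sources used here, which matters most for overlapping genes. Of 58735 genes, 23756 had no count.

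Counts were tested with edgeR 4.0.16 in R 4.3.3: TMM scaling, filterByExpr, the quasi-likelihood test and p-values adjusted by Benjamini-Hochberg over every gene in the fit (13753 in T-HESC, 14122 in HEC-1A and 16132 in the fit of 12 libraries). SEs were derived from the quasi-likelihood F value. Likeness used log2 CPM with a prior count of 2. Gene positions and exon lengths came from GENCODE 44. The procedure was tested on simulated data. SCIN, SOX9, BICC1 and the gene lists were chosen with earlier results of these data known. Other genes were named by rule: those called for the difference, up to 4 abundant or called genes of each list, the nearest tested genes and the 5 most alike. The first genes just outside the threshold and further list members were named after their values were seen. The alternatives were DESeq2 1.42.0, other scalings, filters and thresholds, a replicate block and leaving out single libraries. Results for some genes within these rules are not reported here. Replicate numbers were not taken as pairs. Replicates differed by a chi-square per degree of freedom of 1.88 to 233 over genes, so none was a copy.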

Additional observations from a re-analysis of the deposited data

Results flagged for a closer look

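A difference of the AG-205 effect between the lines was flagged for 7 of the genes named above. All 7 were called by the test of the difference, and an adjusted p is given only for the 4 that were not picked by it. For SCIN, SOX9 and BICC1 the differences of 1.76, 2.82 and 1.30 (log2, T-HESC minus HEC-1A) are the values that chose these genes, and they are repeated without a test. F3, which encodes tissue factor, had the opposite sign, at -1.76 (adjusted p = 0.0267, edgeR's quasi-likelihood test). TFPI2 had 1.85 (adjusted p = 0.0298), PPARGC1B 4.83 (adjusted p = 0.0407, with 0, 0 and 1 counts in T-HESC with DMSO) and the lncRNA ENSG00000260196 2.42 (adjusted p = 0.0407). Leaving out 1 library at a time, these last 4 genes lost their calls in 10, 8, 11 and 10 of 12 fits, while the differences stayed within -2.02 to -1.66, 1.65 to 2.02, 4.30 to 6.75 and 2.26 to 2.58. Groups of 3 libraries are too small to test for single outlying values.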

How the results depend on the processing

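The log2 values of SCIN, SOX9 and BICC1 kept their direction in T-HESC, in the difference between the lines and in the level over both treatments under every alternative that gave a value, and moved by less than 1 SD of the libraries except for SOX9 without single libraries (2.47 to 3.07 in T-HESC, 2.53 to 3.14 for the difference). SOX9 could not be fitted in T-HESC where a mean of at least 1 CPM was required. Counts of called genes moved far more. In T-HESC the 11 calls became 115 with DESeq2, 0 at an adjusted p under 0.01 (with 740 at an unadjusted p under 0.05), 160 with all 12 libraries together and 181 without a filter on low counts, and 0 to 72 when 1 library was left out, with 72 without AG-205 replicate 1. In HEC-1A the 393 calls became 141 with all 12 libraries together and 1643 with no fold limit, and 310 to 589 when 1 library was left out. For the difference, 28 became 86 with DESeq2, 4 at an adjusted p under 0.01 and 141 without a filter, and 4 to 80 when 1 library was left out. For the level over both treatments, 7600 became 11471 with no fold limit and 7609 to 8020 when 1 library was left out. With a prior count of 0.5, 3 of the 5 genes most like SOX9 were shared, both over 12 and over 6 libraries. Upper-quartile scaling moved the median of all genes by -0.20 between the lines and DESeq2 by -0.13. Of the 404 checks of other named genes, 323 kept their side of the threshold, 60 lost a call and 21 gained one. The value of MCTP1 in HEC-1A, which was not called, took either sign (-0.05 to 0.17) when 1 library was left out. The causes were not tested.

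Deviations of same-numbered AG-205 and DMSO libraries correlated at -0.06, 0.18 and -0.00 in HEC-1A and at 0.21, -0.43 and -0.03 in T-HESC. Not every library correlated best with its own number. With 3 libraries in each group, these values cannot show whether same-numbered libraries came from the same experiment. The paper describes 3 independent culture experiments and paired its RT-qPCR values by experiment. It does not say which libraries belong to which experiment. The main fits did not use the numbers as pairs. With the replicate number as a block, 9 genes were called in T-HESC, 363 in HEC-1A, 0 for the difference and 7582 between the lines (edgeR). Without the block the difference was called for 7 genes toward T-HESC and 21 toward HEC-1A, and 1025 genes had an unadjusted p under 0.05. None of those calls was kept with the block, those of SCIN, SOX9 and BICC1 included. The differences of these 3 genes with the block were 1.76, 2.80 and 1.29. At 2 to 3 counts per T-HESC library with DMSO, depth limits how well the size of the SOX9 effect is known.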
